A study of Mus musculus with 3 samples.

Results

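The cytoplasmic ribosomal protein genes were described here across single-cell transcriptomes of mouse forelimb buds. Members were chosen by gene symbol: names that begin with Rps or Rpl followed by a number, with Rpsa and the stalk genes Rplp0, Rplp1 and Rplp2, leaving out predicted genes, pseudogenes, the S6 kinase genes and 1 further symbol that the rule excludes. This gave 81 of 15122 genes, 32 of the small subunit and 49 of the large subunit. Forelimbs of wild-type embryos were dissociated with trypsin and profiled with 10x Genomics 3′ version 2 chemistry, 1 reaction in each group. The groups were strain c57bl6.J at embryonic stage E10.5 (B6_E10.5), strain 129S6.sv at E9.5 (129S6_E9.5) and strain c57bl6.J at E9.5 (B6_E9.5). All 3 groups are wild type, and the number of embryos behind a reaction is not stated in the labels. With 1 library in each group there is no replicate and no test, so every difference below is a difference between libraries, and its 95% interval covers counting error only.

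The ribosome is built from ribosomal RNAs and one copy of nearly every ribosomal protein, so that its protein genes are read at high and coordinated levels in growing cells. The mRNAs of these proteins are short and abundant, and most vertebrate ones start with a C followed by a run of pyrimidines, the 5′ terminal oligopyrimidine (TOP) sequence, through which mTOR signalling and Larp1 adjust their translation. The limb bud at these stages is a fast-growing pocket of mesenchyme under an ectodermal cover, entered by muscle progenitors and vessels.

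The deposited unique molecular identifier (UMI) counts, in which each captured molecule counts once whatever its length, came to 119942504 in 18957 cells of B6_E10.5, 93029510 in 12220 cells of 129S6_E9.5 and 124388358 in 12773 cells of B6_E9.5. Median depth was 5710, 7348 and 7623 UMIs per cell in that order, and 10.1% of the cells in B6_E10.5, 3.49% in 129S6_E9.5 and 30.8% in B6_E9.5 had fewer than 2000 UMIs. In 1728 cells the barcode also occurred in another library. Of the authors' 5 clusters, 4 were called limb mesenchyme, ectoderm, muscle progenitor and erythroid from 3, 4, 6 and 4 markers among their 10 leading genes. The remaining one is given as cluster 3, because its leading genes held 1 endothelial, 2 megakaryocyte and 4 myeloid markers. Its summed endothelial markers stood at 3060 CPM (counts scaled to 1e+06 UMIs) in B6_E10.5, 4317 CPM in 129S6_E9.5 and 3929 CPM in B6_E9.5. These were the highest of the marker sums in each library. Megakaryocyte markers summed to 1413, 293 and 243 CPM in the same order. Macrophage and other myeloid markers summed to 1698, 24.1 and 39.5 CPM. The authors' clusters were made from these same cells, so differences between classes are a description.

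Ribosomal protein mRNAs made up 24.2% of all UMIs, 81741876 of 337360372. At least 1 UMI of all 81 members was found in every library, and 80 reached the floor used for comparisons, 50 CPM and 20 UMIs in the library where a gene is higher. The exception was Rpl39l, a copy of Rpl39, with 68 UMIs in all. The 10 most abundant members held 24.6% of the member UMIs, and the median member had 961527 UMIs in all cells. In limb mesenchyme, Rpl13, Rpl41, Rplp0 and Rps14 were among the 10 most abundant of all 3 libraries. Rplp0, the protein that anchors the stalk of the large subunit to which translation factors bind, had 6834 CPM in B6_E10.5, 8501 CPM in 129S6_E9.5 and 7991 CPM in B6_E9.5. Rpl41, which encodes a very short basic peptide of the large subunit, had 7120, 6032 and 7739 CPM in the same order.

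Outside the erythroid class, single cells of one class and library spread more widely in their ribosomal protein share than the class medians differed. In limb mesenchyme the median cell gave 25.08% of its UMIs to these genes in B6_E10.5, 23.6% in 129S6_E9.5 and 25.03% in B6_E9.5. The 10th to 90th percentiles ran from 21.2% to 29.1%, from 20.9% to 26.7% and from 22.0% to 28.9%. In ectoderm the medians were 27.0%, 24.3% and 25.02%, and in cluster 3 they were 23.2%, 21.8% and 22.5%. Muscle progenitors, cells that enter the bud from the somites, stood farthest apart of these 4 classes, with 26.7% in B6_E10.5, 22.7% in 129S6_E9.5 and 23.5% in B6_E9.5. The order of the classes therefore differed between libraries: muscle progenitors lay 1.66 percentage points above the mesenchyme of their own library in B6_E10.5, and below it by 0.907 points in 129S6_E9.5 and by 1.51 points in B6_E9.5. Markers of other cells also differed between the libraries in this class. Neuron markers, of which 6, 7 and 4 of 7 were detected, summed to 52.0 CPM in B6_E10.5, 923 CPM in 129S6_E9.5 and 9.90 CPM in B6_E9.5, and the neurofilament genes Nefm and Nefl were among the 10 leading genes of the cluster. Endothelial markers summed to 48.2, 176 and 235 CPM, somite and sclerotome markers to 54.7, 72.6 and 207 CPM, and erythroid markers to 287, 468 and 1120 CPM in the same order. Their part in the share of muscle progenitors was not tested.

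**Figure D1:**
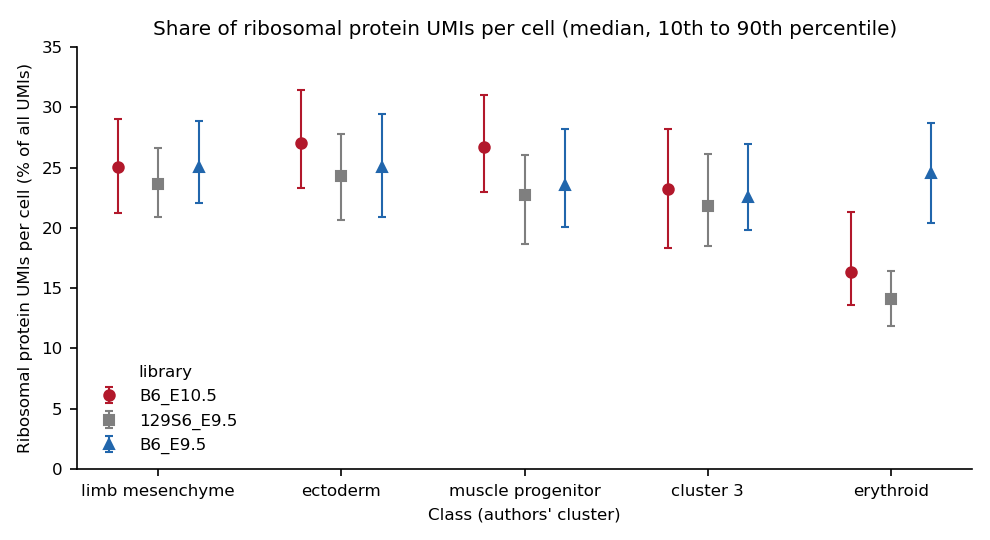
Share of all UMIs that ribosomal protein genes took in each cell, by class (horizontal axis) and library (colour and symbol); points are medians over cells and bars run from the 10th to the 90th percentile. The muscle progenitor medians were 26.7% in B6_E10.5, 22.7% in 129S6_E9.5 and 23.5% in B6_E9.5, and the erythroid class was lowest in B6_E10.5 and 129S6_E9.5, at 16.4% and 14.1%.

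Depth moved these shares by at most 3.19 points outside the erythroid class. Over depth bins with at least 20 cells, the span of bin medians within a class and library ran from 0.549 points (muscle progenitors of B6_E9.5) to that value (cluster 3 of B6_E9.5). Among cells of 4000 to 8000 UMIs, the muscle progenitor medians were 27.2%, 22.1% and 23.1% in B6_E10.5, 129S6_E9.5 and B6_E9.5. The gap between B6_E10.5 and B6_E9.5 was thus there at equal depth, at 4.11 points. Its size depended on the bin, and among cells of 8000 to 16000 UMIs it was 2.69 points. In mesenchyme the gap between B6_E10.5 and B6_E9.5 was 0.835 points at 4000 to 8000 UMIs and 0.084 points at 8000 to 16000 UMIs. There 129S6_E9.5 lay below B6_E9.5 by 0.901 and 0.780 points in these bins. Among cells with at least 2000 UMIs, each thinned to 2000, the median number of members with a UMI ran from 70 to 77 over the 15 combinations of class and library.

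**Figure D2:**
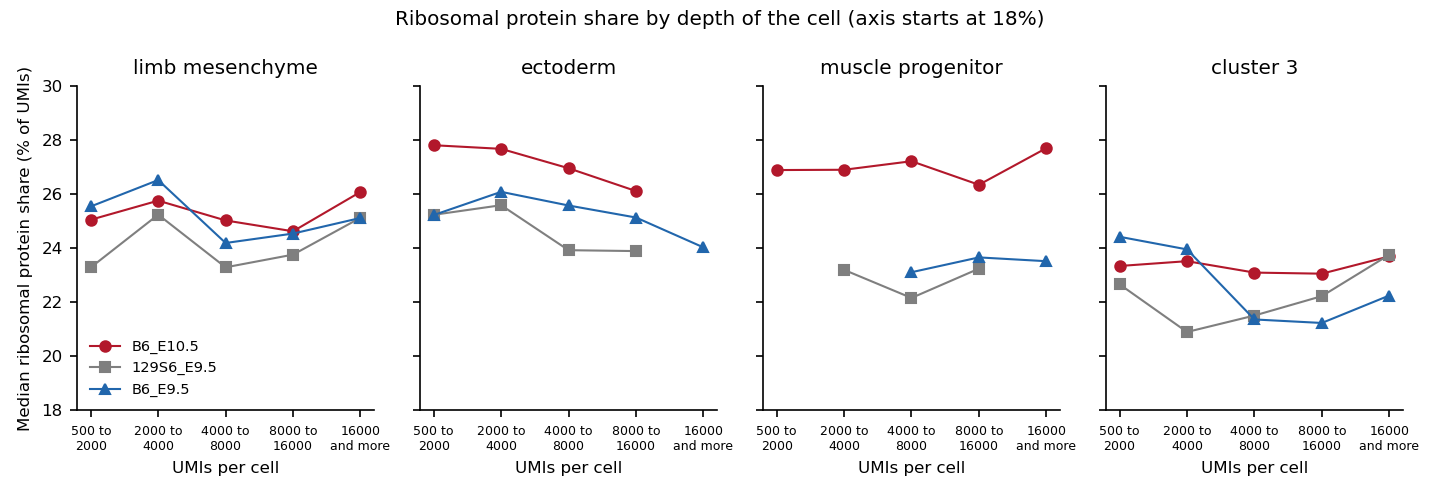
Median ribosomal protein share of cells (vertical axis, from 18%) in bins of UMIs per cell (horizontal axis) for 4 classes and 3 libraries; bins with fewer than 20 cells are not drawn. In muscle progenitors the B6_E10.5 line lies above both E9.5 lines in every bin that they share, at 27.2% against 22.1% in 129S6_E9.5 and 23.1% in B6_E9.5 for 4000 to 8000 UMIs.

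By cell medians, erythroid cells had the lowest share of the classes in B6_E10.5 and 129S6_E9.5. The median was 16.4% in B6_E10.5, 14.1% in 129S6_E9.5 and 24.6% in B6_E9.5. Over the pooled class UMIs the share was 16.7%, 14.1% and 21.6%, the lowest of the classes in each library. Haemoglobin genes took 51.3%, 52.1% and 31.9% of the same pooled UMIs. With haemoglobin UMIs left out, ribosomal protein genes made up 34.4%, 29.5% and 31.7% of the erythroid UMIs, above every other class. The erythroid cells of B6_E9.5 were shallow, with a median of 735 UMIs, and the 157 of them with at least 2000 UMIs had a median share of 20.8%. Values of this class against B6_E9.5 are given below only where they are needed.

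Between E10.5 and E9.5 of c57bl6.J, the summed CPM of the members in limb mesenchyme was nearly the same. The ratio of B6_E10.5 over B6_E9.5 was 0.996 (0.995 to 0.996). Scaling by TMM factors in place of totals multiplies it by 0.915. The summed ratio was 1.09 (1.08 to 1.09) in ectoderm, 1.13 (1.13 to 1.13) in muscle progenitors and 1.06 (1.06 to 1.06) in cluster 3. Single members moved more. Genes were called by size, at a CPM ratio of at least 1.5 in either direction. In mesenchyme 3 of the 80 members were higher in B6_E10.5, where 11.1% of all 3303 genes compared were, and 7 were lower, where 10.51% of all genes were. The median log2 ratio of the members was -0.04 and that of all genes -0.01. At 2-fold 0 members were higher and 2 lower, where 4.57% and 2.66% of all genes were, and at 5/4-fold 7 were higher and 19 lower, where 22.9% and 23.7% were.

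The members higher at E10.5 in mesenchyme were Rps4x, Rps10 and Rpl3. Rps4x, the X-linked copy of a core small subunit protein (chromosome X, 102184941 to 102189394, mm10), had 4787 CPM in B6_E10.5 and 2821 CPM in B6_E9.5, a ratio of 1.70 (1.69 to 1.71). In 129S6_E9.5 it had 5231 CPM, so B6_E9.5 was the low library. Rpl3, a large subunit protein that reaches towards the peptidyl transferase centre, showed the same order, with 4347 CPM in B6_E10.5, 4764 CPM in 129S6_E9.5 and 2870 CPM in B6_E9.5. Rps10, a protein of the small subunit's head (chromosome 17, 27630418 to 27636669), had 821 CPM in B6_E10.5, 616 CPM in 129S6_E9.5 and 525 CPM in B6_E9.5. Rps10 was thus highest in B6_E10.5 against both E9.5 libraries, at ratios of 1.33 over 129S6_E9.5 and 1.57 over B6_E9.5, and B6_E10.5 was also highest in the other 4 classes. The next highest ratios over B6_E9.5, inside the size limit, included 1.27 each for Rps3a1 and Rps9. With counts scaled by TMM factors in place of totals, which moved every log2 ratio of B6_E10.5 over B6_E9.5 in this class by -0.13, 1 member was higher and 12 were lower. The shift applies to all genes alike, and the share of all genes called with these factors was not counted.

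The members lower at E10.5 in mesenchyme were Rpl35, Rpl38, Rps21, Rps29, Rplp1, Rps27l and Rpl39. Rpl35, a protein at the exit of the nascent peptide tunnel (chromosome 2, 39001580 to 39005624), had 574 CPM in B6_E10.5 and 1417 CPM in B6_E9.5, a ratio of 0.405 (0.401 to 0.409). Rpl38, whose loss in mice alters the axial skeleton and the translation of Hox mRNAs (chromosome 11, 114668524 to 114672331), had 648 CPM in B6_E10.5 and 1433 CPM in B6_E9.5, a ratio of 0.452 (0.448 to 0.457). The other E9.5 library did not share these high values: Rpl35 had 535 CPM and Rpl38 had 690 CPM in 129S6_E9.5. Rps21, a small subunit protein, had 633 CPM in B6_E10.5, 685 CPM in 129S6_E9.5 and 1158 CPM in B6_E9.5, and Rps29, a zinc-binding protein of the small subunit's head, had 1421, 1517 and 2518 CPM. For all 4 of these genes the B6_E10.5 and 129S6_E9.5 levels lay close together and B6_E9.5 stood well above both. Against 129S6_E9.5 as the E9.5 library, 0 members were lower in B6_E10.5, where 12.2% of all genes were, and 3 other members were higher (Rps3a1, Rps2 and Rps15a), where 9.77% were. Stage and library cannot be told apart for the members that differ between B6_E10.5 and B6_E9.5. In mesenchyme the summed ratio of B6_E10.5 over 129S6_E9.5 was 1.05 (1.05 to 1.05) and the members' median log2 ratio 0.09, against -0.08 for all genes. TMM factors moved these log2 ratios by -0.13, which takes both values to the other side of no difference.

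For B6_E10.5 over B6_E9.5, the other classes come from the same libraries. In ectoderm 1 member was higher (Rps10, 1.86) and 3 were lower (Rpl35, Rpl38 and Rps21), where 5.86% and 5.47% of all genes were. In muscle progenitors 3 were higher (Rps10, Rpl3 and Rps4x) and 3 lower (Rpl35, Rpl38 and Rps29), where 7.1% and 12.1% of all genes were. In cluster 3 the same 3 members were higher and 4 lower (Rpl35, Rpl38, Rps21 and Rps29), where 8.84% and 10.9% were. In erythroid cells 0 were higher and 20 lower, where 2.13% and 51.2% of all genes were, at a summed ratio of 0.776. Rpl35 was the lowest compared member in all 5 classes, with log2 ratios from -1.81 to -1.20. The value of -1.81 was that of erythroid cells, where the median of all genes was -0.60, and the next lowest was -1.31 in cluster 3.

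Against 129S6_E9.5, the members higher in B6_E10.5 were led by Rps2 and Rps3a1 in all 5 classes. In ectoderm 4 members were higher and 0 lower, where 7.09% and 8.2% of all genes were, and the leading ratios were 2.38 for Rps3a1 and 2.34 for Rps2. In muscle progenitors 9 members were higher and 0 lower, where 8.36% and 16% of all genes were. These 9 were Rps2, Rps3a1, Rps15a, Rps25, Rpl21, Rps10, Rpl36al, Rpl36a and Rps24, and the summed ratio of all members there was 1.18 (1.18 to 1.18). In cluster 3, 3 were higher (Rps2, Rps3a1 and Rps15a) and 0 lower, where 6.43% and 8.69% were, and in erythroid cells 6 were higher and 0 lower, where 4.93% and 9.67% were.

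Between the strains at E9.5, the members' summed level in limb mesenchyme had a ratio of 129S6_E9.5 over B6_E9.5 of 0.948 (0.948 to 0.949). Higher in 129S6_E9.5 were 3 of the 80 members, where 13.2% of all 3282 genes were, and 11 were lower, where 9.54% were. The median log2 ratio was -0.15 for the members and 0.08 for all genes. At 2-fold 0 members were higher and 4 lower, where 2.44% and 3.53% of all genes were, and at 5/4-fold 12 were higher and 33 lower, where 30.2% and 21.5% were. The higher ones were Rps4x at 1.85 (1.85 to 1.86), Rpl3 at 1.66 (1.65 to 1.67) and Rpl10a at 1.51. Rpl10a, a protein of the stalk on the other side of the large subunit, had 3198 CPM in 129S6_E9.5 and 2121 CPM in B6_E9.5. Just under the size limit was Rpsa, also known as the laminin receptor, with 4453 CPM in 129S6_E9.5 and 2980 CPM in B6_E9.5, a ratio of 1.49. In B6_E10.5 Rpsa had 3484 CPM. Rps9 followed at 1.42 and Rpl8 at 1.34.

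Rps2 and Rps3a1, among the members lower in 129S6_E9.5, set that library apart from both c57bl6.J libraries. Rps2, a small subunit protein at the mRNA entry channel (chromosome 17, 24718116 to 24721929), had 2959 CPM in 129S6_E9.5, against 6553 CPM in B6_E9.5 and 6357 CPM in B6_E10.5. Rps3a1, which lies near the mRNA exit (chromosome 3, 86137940 to 86142702), had 1600.5 CPM in 129S6_E9.5, against 3139 CPM in B6_E9.5 and 3995 CPM in B6_E10.5. Over the 5 classes the log2 ratio of 129S6_E9.5 over B6_E9.5 ran from -1.62 to -1.12 for Rps2 and from -1.69 to -0.96 for Rps3a1. Both lowest values were those of erythroid cells, where the median of all genes was -0.45. The next lowest were -1.18 and -1.27, in ectoderm. Both genes have near-identical copies in the mouse genome, so their levels rest on how reads were assigned, which for a strain that differs from the reference was not tested. The other members lower in 129S6_E9.5 included Rpl35 at 0.378 (0.373 to 0.382), Rpl38 at 0.481 (0.476 to 0.486), Rpl39 at 0.491 (0.487 to 0.495), and Rps27 at 0.510 (0.506 to 0.515).

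For the strain comparison, Rpl35 was the lowest compared member in all 5 classes. In ectoderm 0 members were higher in 129S6_E9.5 and 8 lower, where 8.2% and 7.6% of all genes were. In muscle progenitors 3 were higher (Rps4x, Rpl3 and Rpsa) and 12 lower, where 14.5% and 11.6% were. In cluster 3, 5 were higher (Rps4x, Rpl3, Rpl10a, Rpsa and Rps9) and 8 lower, where 11% and 8.52% were. The lowest 3 in ectoderm, muscle progenitors and cluster 3 included Rpl35 and Rps2 each time, with ratios of 0.373 to 0.412 for Rpl35. In erythroid cells 0 were higher and 53 lower, where 3.91% and 41.1% of all genes were. TMM factors moved the log2 ratios of that class by 0.63.

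**Figure D3:**
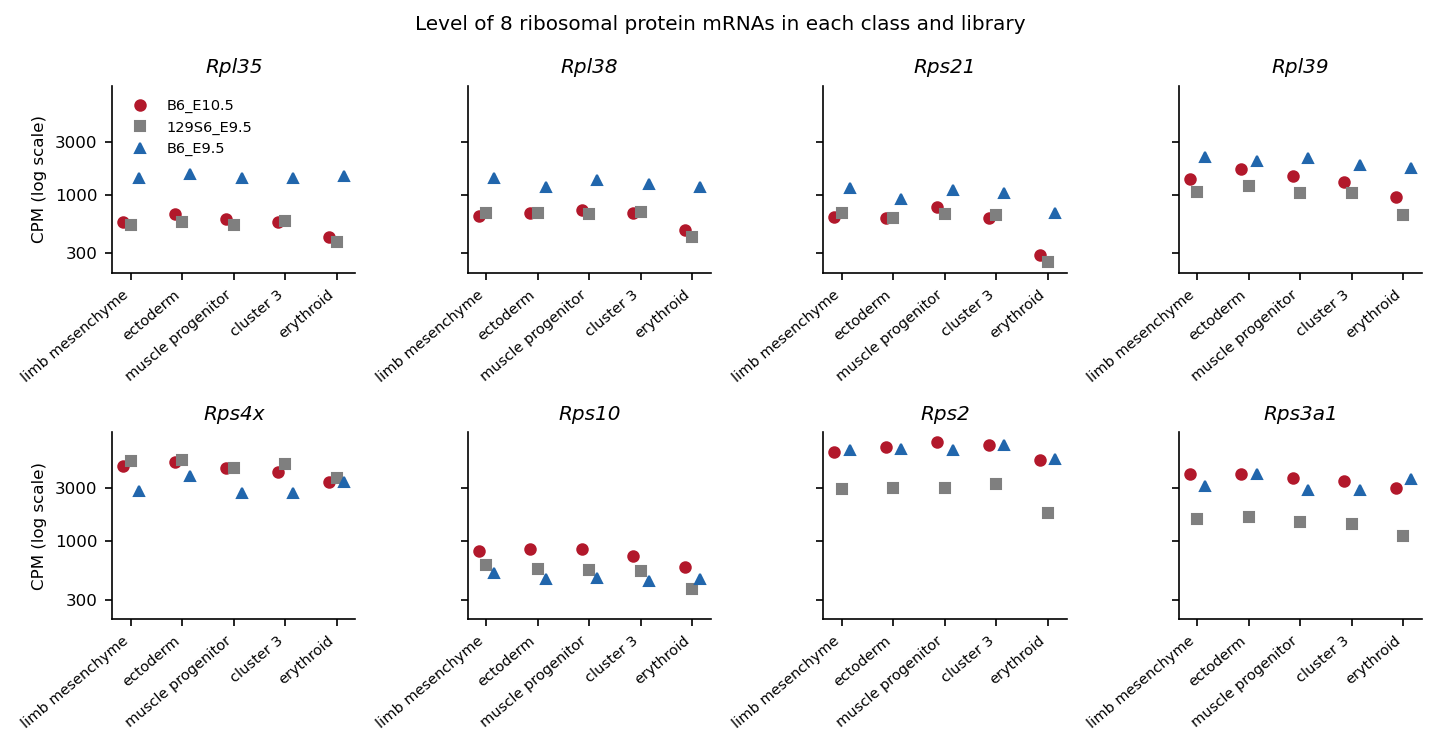
Level of 8 ribosomal protein mRNAs in CPM (vertical axis, log scale) in each class (horizontal axis) and library (colour and symbol), 1 sum of cells per point. Rpl35 and Rpl38 are high in B6_E9.5 in all 5 classes, Rps10 is highest in B6_E10.5, and Rps2 and Rps3a1 are low in 129S6_E9.5.

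The sequences at the transcription start of some of these genes are shown because TOP mRNAs are defined by them. RefSeq promoter windows (GRCm38.p6, the assembly of mm10) were found for 62 of the 81 members. Each line gives 10 bases before and 20 bases from the annotated start, 5′ to 3′ on the gene's strand, with capitals for a C and at least 4 further pyrimidines that begin within 5 bases of the start.
Rpl35, chr2:39005112-39005141, minus strand: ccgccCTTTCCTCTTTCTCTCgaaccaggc
Rpl38, chr11:114668570-114668599, plus strand: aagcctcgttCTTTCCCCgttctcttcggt
Rps10, chr17:27635225-27635254, minus strand: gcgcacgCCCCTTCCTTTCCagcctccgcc
Rps27, chr3:90213629-90213658, minus strand: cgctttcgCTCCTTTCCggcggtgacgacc
Rps2, chr17:24720053-24720082, plus strand: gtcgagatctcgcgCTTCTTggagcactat
Rps4x, chrX:102189372-102189401, minus strand: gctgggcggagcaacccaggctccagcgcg
Rps3a1, chr3:86142649-86142678, minus strand: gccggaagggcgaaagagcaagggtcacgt
The run was found in Rpl35, Rpl38, Rps10, Rps27 and Rps2, and not in the windows of Rps4x and Rps3a1, which says only that the letters are not there around this annotated start.

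The pyrimidine run was present in 29 of the 62 members, 46.8%, and in 21.2% of 27025 genes with a window outside chromosome 18. In the 300-base windows, from 250 bases before the start, CTCGCGA on either strand was found in 22.6% of the members and 2.22% of all genes, and CCGGAAG, a core of ETS family sites, in 41.9% and 9.93%. AAGATGG, part of the YY1 motif, was in 16.1% of members and 7.28% of all genes. GGGCGG, the GC box, was in 62.9% and 38.2%, and the E-box CACGTG in 9.68% and 8.09%. Of the members with a run, 1 was higher and 5 were lower in B6_E10.5 than in B6_E9.5 mesenchyme, and of the 32 compared members without one, 1 was higher and 0 were lower, where 11.1% of all genes were higher and 10.51% lower. The median log2 ratio was -0.10 for members with a run and 0.00 for those without. Against 129S6_E9.5 the medians were 0.11 and 0.10. For 129S6_E9.5 over B6_E9.5 they were -0.34 and -0.12. There 0 members with a run were higher and 7 lower, and 2 and 3 without one, where 13.2% and 9.54% of all genes were. Rpl38, Rps21, Rps27l and Rpl39, among the 5 members with a run lower in B6_E10.5, have coding sequences under 300 nucleotides. Run and length were not separated.

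The ratios against B6_E9.5 were lower for members with a short coding sequence, a property chosen after the values were seen. The coding sequences ran from 75 to 1257 nucleotides with a median of 453. In limb mesenchyme the 10 compared members under 300 nucleotides had a median log2 ratio of -0.58 for B6_E10.5 over B6_E9.5 and -0.71 for 129S6_E9.5 over B6_E9.5. The 20 members of 600 to 900 nucleotides had medians of 0.18 and 0.13. Across the 80 members, Pearson's r of the log2 ratio with log2 coding length was 0.59 in each of these 2 comparisons, which share the B6_E9.5 library, and -0.14 for B6_E10.5 over 129S6_E9.5. Genes are not independent replicates, and these coefficients describe 1 pair of libraries each. Across all other genes compared, r was 0.07, 0.06 and 0.00, and the medians of those under 300 nucleotides were -0.14, -0.36 and 0.20.

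**Figure D4:**
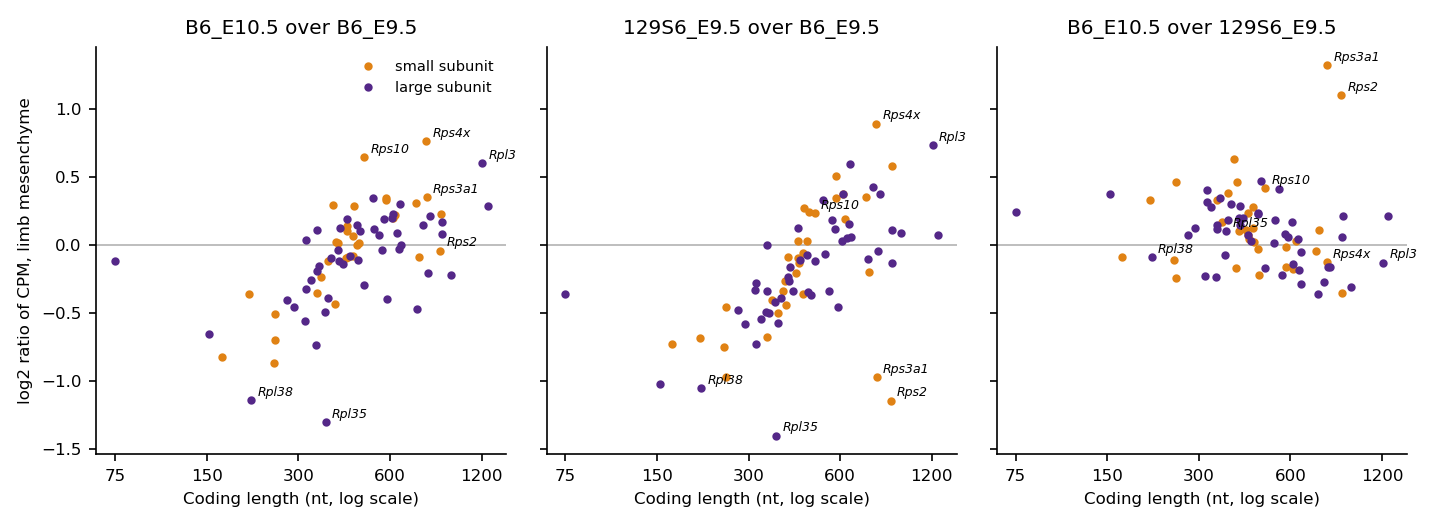
Log2 CPM ratio in limb mesenchyme of each of 80 ribosomal protein genes (vertical axis) against its coding length (horizontal axis, log scale) for 3 pairs of libraries; orange points are small subunit members and purple points large subunit members. Short members lie below 0 in the left and middle panels, whose denominator is B6_E9.5, with medians of -0.58 and -0.71 under 300 nucleotides, and at 0.10 in the right panel.

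The excess of short members in B6_E9.5 was present at every depth. The 10 short members took 7.30% of the member UMIs in B6_E10.5 mesenchyme, 6.86% in 129S6_E9.5 and 9.86% in B6_E9.5. Over the 5 depth bins their share ran from 7.20% to 7.60% in B6_E10.5, from 6.78% to 7.67% in 129S6_E9.5 and from 9.52% to 11.1% in B6_E9.5. It was 7.26%, 6.64% and 8.76% in ectoderm and 7.72%, 7.15% and 10.3% in muscle progenitors. Mitochondrial transcripts were 3.91%, 2.65% and 3.56% of the mesenchyme UMIs of B6_E10.5, 129S6_E9.5 and B6_E9.5. All 11 erythroid markers were detected in mesenchyme of each library, with summed levels of 299, 450.3 and 1330 CPM, so B6_E9.5 was also the library with most of that RNA in mesenchyme. The part of these differences in the members' ratios was not tested. With haemoglobin and mitochondrial UMIs left out, the summed member ratios in mesenchyme were 0.998 for stage and 0.938 for strain.

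Within a library, few members differed by 1.5-fold between classes in their share of the member UMIs. Each member's share of the member UMIs was set against its share in mesenchyme of the same library. In ectoderm, muscle progenitors and cluster 3, 0 of 80 members differed by 1.5-fold in B6_E10.5 and 129S6_E9.5, and in B6_E9.5 only Rpl7l1 in ectoderm did, at 0.652. By CPM, another measure, 2.97% to 21% of all genes were higher, or lower, in these classes than in mesenchyme. Inside the limit, the share of Rplp1 was at 0.695 in ectoderm of B6_E9.5 and 1.31 in muscle progenitors of B6_E10.5. Rps26 was at 0.733 in ectoderm of B6_E9.5 and 0.761 in cluster 3 of B6_E10.5. In erythroid cells 2 members were lower in B6_E10.5, 2 in 129S6_E9.5 and 1 in B6_E9.5. By CPM, the measure that keeps the members' total level, 44, 63 and 7 of the 80 members were lower there than in mesenchyme. Of all genes 83.4%, 83.9% and 65.1% were lower by CPM, in the same order of libraries. Rpl7l1, a copy of Rpl7, was lower in all 3, with shares of 0.553, 0.587 and 0.534 times those in mesenchyme. Rps28 was at 0.638 in B6_E10.5 and Rps21 at 0.618 in 129S6_E9.5. The widest log2 differences of a member's pool share over the 5 classes, averaged over the 3 libraries, were 0.85 for Rpl7l1, 0.69 for Rps21, 0.58 for Rps26 and for Rps28, 0.54 for Rpl13a and 0.51 for Rps27. Between the libraries, some members stood apart in every class. In B6_E10.5 over B6_E9.5 the share of Rps10 was at least 1.5-fold higher, and those of Rpl38, Rps29, Rpl35 and Rps21 at least 1.5-fold lower, in all 5 classes. In 129S6_E9.5 over B6_E9.5, 6 members were at least 1.5-fold lower in all 5 (Rpl38, Rps2, Rpl35, Rps3a1, Rps27 and Rpl39). Classes of 1 library share its reaction and are not replicates. The same count over all genes was not made. By CPM in mesenchyme alone, 11.1% of all genes were higher and 10.51% lower for stage, and 13.2% and 9.54% for strain.

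Summed over a subunit, the differences were small. For B6_E10.5 over B6_E9.5 in mesenchyme the summed ratio was 1.04 for the small and 0.966 for the large subunit, and for 129S6_E9.5 over B6_E9.5 it was 0.956 and 0.943. Of the stalk proteins, Rplp1 had 2991 CPM in B6_E10.5, 3530 CPM in 129S6_E9.5 and 4978 CPM in B6_E9.5, while Rplp2 had 2527, 2333 and 2340 CPM. The log2 ratio of B6_E10.5 over B6_E9.5 for Rplp1 was -0.73 in mesenchyme, -0.43 in erythroid cells and -0.05 in cluster 3. Rpl5 and Rpl11, which with the 5S ribosomal RNA bind Mdm2 when assembly fails, had 1467, 1270 and 1392 CPM and 3895, 3429 and 3594 CPM in mesenchyme of B6_E10.5, 129S6_E9.5 and B6_E9.5. Rps6, the substrate of the S6 kinases, had 4010, 3726 and 4276 CPM, and Rps19, a gene of Diamond-Blackfan anaemia in humans, had 5618, 4787 and 5115 CPM.

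Ribosomal protein genes that the symbol rule misses were read too. In mesenchyme of B6_E10.5, 129S6_E9.5 and B6_E9.5, Fau, whose product is cut to yield a small subunit protein, had 2566, 2306 and 2351 CPM. Rack1, a signalling scaffold on the small subunit, had 1483, 2137 and 1259 CPM and was thus highest in 129S6_E9.5.

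Copies of ribosomal protein genes were read beside their partners. Rpl22l1 had 1306 CPM in B6_E10.5 mesenchyme, 1377 CPM in 129S6_E9.5 and 1841 CPM in B6_E9.5, above Rpl22 with 1116, 906 and 1192 CPM. Rps27l, a p53-responsive copy of Rps27, had 682, 807 and 1111 CPM, and Rps27 had 1249.9, 907 and 1779 CPM. Rpl36al had 384, 309 and 376 CPM, below Rpl36a with 1355, 1026 and 1702 CPM. Rpl7l1 had 157, 202 and 218 CPM, and Rpl7 had 3102, 3482 and 2687 CPM. Rpl39l stayed near the floor, with 22, 4 and 18 UMIs in mesenchyme, where Rpl39 had 1388, 1073 and 2185 CPM. X-linked Rpl10 had 2800, 3185 and 2870 CPM.

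The factors that assemble ribosomes did not follow the ribosomal proteins. Of 30 ribosome biogenesis genes listed, 23 could be compared between B6_E10.5 and B6_E9.5 mesenchyme, and 0 were higher and 17 lower, with a median log2 ratio of -0.71 against -0.01 for all genes, of which 10.51% were lower. Against 129S6_E9.5, B6_E10.5 had 0 of 27 higher and 19 lower, with a median of -0.77, and 129S6_E9.5 over B6_E9.5 had 1 higher and 1 lower of 27, with a median of 0.14. Nucleolin (Ncl), an abundant nucleolar protein that acts in ribosomal RNA synthesis and processing, had 1146 CPM in B6_E10.5, 2176 CPM in 129S6_E9.5 and 2694 CPM in B6_E9.5. Nucleophosmin (Npm1), a nucleolar chaperone whose own mRNA starts with a TOP sequence, had 2969, 5361 and 4272 CPM, and the pseudouridine synthase gene Dkc1 had 91.0, 172 and 178 CPM. Fibrillarin (Fbl), the methyltransferase of box C/D small nucleolar particles, differed less, with 248, 366.5 and 269 CPM. In the other classes fewer of these genes were 1.5-fold lower in B6_E10.5 than in B6_E9.5: 2 of 21 in ectoderm, 3 of 27 in muscle progenitors and 7 of 25 in cluster 3, where 5.47%, 12.1% and 10.9% of all genes were. Whether the classes differ in this was not tested. Mycn, a transcription factor that drives ribosome production, had 71.0 CPM in B6_E10.5 mesenchyme, 86.4 CPM in 129S6_E9.5 and 185 CPM in B6_E9.5.

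**Figure D5:**
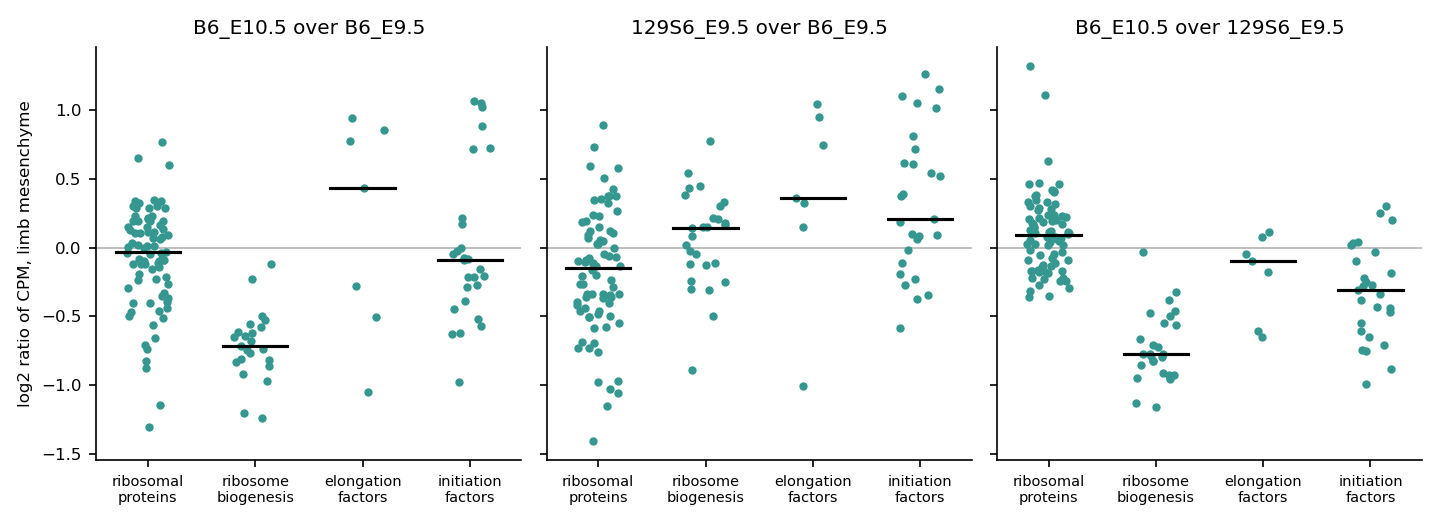
Log2 CPM ratios in limb mesenchyme (vertical axis) of ribosomal protein, ribosome biogenesis, elongation factor and initiation factor genes for 3 pairs of libraries; each point is a gene and black lines are medians. The ribosome biogenesis medians were -0.71, 0.14 and -0.77 from left to right, against -0.04, -0.15 and 0.09 for the ribosomal proteins.

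Translation factors were split. The shares of all genes to set beside the counts in mesenchyme are 11.1% higher and 10.51% lower for B6_E10.5 over B6_E9.5, 13.2% and 9.54% for 129S6_E9.5 over B6_E9.5, and 9.77% and 12.2% for B6_E10.5 over 129S6_E9.5. Of 7 elongation factor genes in mesenchyme, 3 were higher and 1 lower in B6_E10.5 than in B6_E9.5, and 3 were higher and 1 lower in 129S6_E9.5 than in B6_E9.5. Eef1a1, which brings aminoacyl-tRNA to the ribosome, had 5244 CPM in B6_E10.5, 4856 CPM in 129S6_E9.5 and 2899 CPM in B6_E9.5, and Eef2, which drives translocation, had 1514, 1620 and 788 CPM. Eef1g had 2270, 2565 and 1329 CPM. Of 27 initiation factor genes, 6 were higher and 3 lower in B6_E10.5 than in B6_E9.5, and the 6 higher ones were all subunits of eIF3, the scaffold that holds initiation factors on the small subunit (Eif3e, Eif3f, Eif3h, Eif3k, Eif3l and Eif3m). Eif3f had 926 CPM in B6_E10.5, 903 CPM in 129S6_E9.5 and 447 CPM in B6_E9.5. In 129S6_E9.5 over B6_E9.5, 9 initiation factor genes were higher and 0 lower, and B6_E10.5 over 129S6_E9.5 gave 0 higher and 7 lower. Eef1a1, Eef2, Eef1g and Eif3f were thus lowest in B6_E9.5, as were Rps4x and Rpl3. Eif4ebp1, which holds back cap-dependent initiation until mTOR phosphorylates it, had 127, 300.4 and 322 CPM. Of the 69 mitochondrial ribosomal protein genes compared, 0 were higher and 5 lower in B6_E10.5 than in B6_E9.5. Of 8 RNA polymerase I genes 0 were higher and 2 lower, and of 8 genes of mTOR signalling and TOP control 0 were higher and 2 lower. Of 8 other mRNAs known to start with a TOP sequence, 1 was higher and 2 were lower. The proteasome, another large complex, had 0 of 32 genes higher and 0 lower for stage, and 11 higher and 0 lower for strain.

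The genes whose pooled level was most like that of the summed members were named by Pearson's r over the 12 sums of 4 non-erythroid classes and 3 libraries, among 1894 genes. They were Hdgf at 0.904, Auts2, Anapc13, Tia1, Ndufa7 and Hmgn3 at 0.837. The sums share libraries and depth, and the coefficients are a description.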

How the data were processed

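Single-cell libraries of 3 forelimb samples were analysed from the raw UMI counts that the authors deposited as 1 matrix, with no normalization, per the labels. A deposited table gave each cell's stage, strain and cluster. Cell Ranger 3 and mm10 are listed in the submitters' processing notes; the clustering method and annotation release are not given in the sources used here, and neither is the handling of doublets. No doublet caller was run and no cell was removed.

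Counts were summed over the cells of each cluster and library, 1 library per group, and divided by the total to give CPM. A gene was compared if its higher library reached 50 CPM and 20 UMIs, and called at 1.5-fold. Share intervals were exact binomial and ratio intervals exact conditional binomial, at 95%. Coding lengths and coordinates came from GENCODE M21, and cells were thinned to 2000 UMIs for detection. Scripts used Python 3.11.15 with numpy 2.4.6 and scipy 1.17.1, and edgeR 4.0.16 and DESeq2 1.42.0 only for scaling factors, and were tested on simulated data. Total UMIs ran from 93029510 to 124388358 per library.

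The members and lists were chosen with earlier results of these data known. Genes named were the 6 highest and 6 lowest ratios per comparison, the 6 of widest difference between classes, the copies and their partners, 10 members fixed by name, up to 4 genes of most UMIs per list and the 6 most similar genes. Single list members beyond these were added after values were seen. Some genes that this rule names are not reported here.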

Additional observations from a re-analysis of the deposited data

Results flagged for a closer look

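The matrix held near-identical copies of ribosomal protein genes that the symbol rule left out, and their counts stood above the limit of 3 that a count of 0 allows. Rpl10-ps3 had 36051 UMIs in all cells, Rps27rt 27110, Rpl9-ps6 24703, Rpl36a-ps1 14941 and Rpl9-ps1 26. In limb mesenchyme Rps27rt had 89.4 CPM in B6_E10.5, 40.4 CPM in 129S6_E9.5 and 109 CPM in B6_E9.5, and Rpl10-ps3 had 137, 96.1 and 93.5 CPM in the same order. Rpl9-ps6 had 102, 64.0 and 55.7 CPM, and Rpl36a-ps1 had 60.2, 30.5 and 42.5 CPM. Reads of such copies and of their parent genes cannot be told apart with certainty, so the levels of Rpl9, Rpl10, Rpl36a and Rps27 carry that uncertainty.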

How the results depend on the processing

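No paired analysis was possible because each group has 1 library, and for the same reason no library could be left out. For members higher and lower in B6_E10.5 than in B6_E9.5 (3 and 7), TMM and DESeq2 factors both gave 1 and 12, a 2-fold limit 0 and 2 and a 5/4-fold limit 7 and 19. For other scalings and choices of cells, the share of all genes called was not counted. With 129S6_E9.5 in place of B6_E9.5 none was lower (0), and the ratios of Rpl3, Rpl35 and Rps4x turned, to 0.913, 1.07 and 0.915. Rps9, inside the size limit at 1.27, turned as well, with 3970 CPM in B6_E10.5 and 4459 CPM in 129S6_E9.5. For 129S6_E9.5 over B6_E9.5 (3 and 11) the limits gave 0 and 4 at 2-fold and 12 and 33 at 5/4-fold, and cells of 4000 to 16000 UMIs gave 5 higher. Ribosome biogenesis genes lower in B6_E10.5 (17) were 2 at 2-fold; for strain (1 higher and 1 lower) they were 0 and 0 at 2-fold, 6 and 2 at 5/4-fold, and 4 higher in cells of 4000 to 16000 UMIs. The 1 member whose pool share differed in ectoderm of B6_E9.5 was 0 at 2-fold. The summed stage ratio (0.996) was 0.998 without haemoglobin and mitochondrial UMIs, 1.01 in cells of 4000 to 16000 UMIs, 0.992 in cells of at most 5% mitochondrial UMIs, 1.00 without the copies and 0.998 without the 5 most abundant members. The strain ratio (0.948) was 0.938, 0.964, 0.943, 0.951 and 0.958 in that order, 0.949 in cells of at least 2000 UMIs and 0.939 as a mean of per-cell shares. These alternatives keep totals as the scale. TMM and DESeq2 factors multiply the summed stage ratio by 0.915 and 0.909, and the strain ratio by 0.982 and 0.985. The 24 ratios of members named for stage or strain, 12 in each, kept their direction in 7 of 7 alternatives of scaling and cells. The use of 129S6_E9.5 in place of B6_E9.5 is not among these 7. The cause of these shifts was not tested. In the erythroid class TMM factors moved log2 ratios by 0.69 for stage and 0.63 for strain.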
